A study of Homo sapiens with 12 samples.

Results

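KISS1 and KISS1R are the ligand and receptor genes of kisspeptin signalling, described here through the histone marks counted at and around them in a colorectal cancer line and its derivatives. The members were every counted feature of the 3 marks that overlapped either gene or the 3 kb on each side of it, on build hg19. KISS1R lies at chr19:917287-921015 and KISS1 at chr1:204159469-204165619. The rule found 6 features of the 244278 in the series: 3 of H3K27me3, 3 of H3K4me3 and 0 of H3K79me3. KISS1R held 1 H3K27me3 row and 2 H3K4me3 regions, and KISS1 held 2 H3K27me3 rows and 1 H3K4me3 region. The genes were selected on measured values of these libraries, the H3K27me3 counts that set KISS1R in SPH apart from DLD1, so the H3K27me3 values of KISS1R are a description and were not tested.

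KISS1 encodes the precursor of the kisspeptins, peptides that are cut from it by proteases and secreted. It was first described as a metastasis suppressor in melanoma cells. KISS1R, also called GPR54, is a receptor of the G protein-coupled family that signals through Gq and phospholipase C, and the pair is also known for switching on gonadotropin release at puberty. Of the marks, H3K27me3 is written by the Polycomb complex PRC2 over silenced genes, H3K4me3 sits at promoters that are active or poised, and H3K79me3, the product of the enzyme DOT1L, covers genes that are being transcribed. A promoter that carries H3K27me3 and H3K4me3 together is called bivalent.

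Chromatin was precipitated with an antibody to each mark in 4 lines, so that the 12 libraries hold a single one for each line and mark. SA came out of colonies grown in soft agar, SPH came out of colonospheres, and the labels describe both as mesenchymal. METS was derived from a lung metastasis of a xenograft and is described as epithelial. DLD1, a human colorectal cancer cell line, is the parental line and is also described as epithelial. The titles of the derivative libraries call those lines parental too, so libraries were assigned by the line name in each title, and only DLD1 is parental in the descriptions and cell characteristics. The growth medium of all lines was McCoy's 5A, to which serum and antibiotics were added. No library of input DNA was used here, so mark level and DNA copy number cannot be told apart from these counts alone.

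The tables held 15605814 to 20410151 reads per library for H3K27me3, 6722508 to 7753937 for H3K4me3 and 6165169 to 7521451 for H3K79me3. Counts were divided by the library total and are given as CPM, counts per 1000000. A fold is a ratio of 2 CPM values, and the range in brackets is its exact 95% interval by the Clopper-Pearson method. There are no replicates, so these intervals hold counting error and nothing else. A feature was called higher or lower when its CPM, with 0.5 added, differed at least 2-fold between lines.

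H3K27me3 over KISS1R was lowest in SPH and highest in DLD1. The row spanning the gene, chr19:917287-921015, had 193 counts in SA, 65 in SPH, 259 in METS and 241 in DLD1. Scaled for depth and length this came to 2.74 CPM per kb in SA, 0.854 in SPH, 3.42 in METS and 4.14 in DLD1. SPH thus stood apart from the other 3 lines, while SA, METS and DLD1 lay closer together. SPH was 4.85-fold lower than DLD1 (3.67 to 6.48), 3.21-fold lower than SA (2.41 to 4.32), and METS was 4.01-fold higher than SPH (3.04 to 5.35). SA was 1.51-fold lower than DLD1 (1.25 to 1.84). METS was 1.21-fold lower than DLD1 (1.01 to 1.45) and 1.25-fold higher than SA (1.03 to 1.51). From low to high the levels ran SPH, SA, METS and DLD1. With 1 library each, the spread between cultures of a line is not known, and the intervals of METS against DLD1 and against SA come close to no difference.

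**Figure D1:**
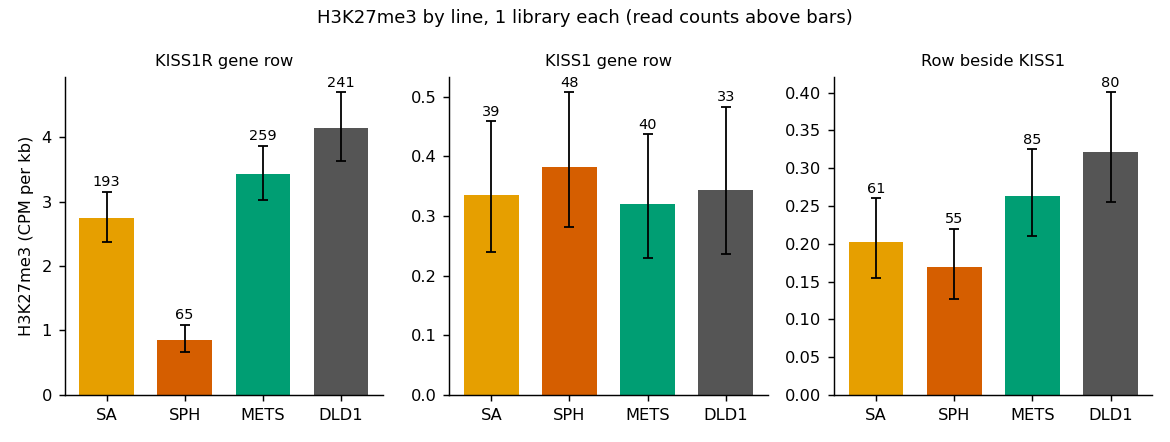
H3K27me3 in CPM per kb (y axis, from 0, with its own scale in each panel) in SA, SPH, METS and DLD1 over the KISS1R row, the KISS1 row and the row beside KISS1. Bars are single libraries, whiskers are exact 95% Poisson intervals and the numbers above are read counts; KISS1R was at 0.854 in SPH and 4.14 in DLD1, whereas KISS1 lay between 0.321 and 0.383 in every line.

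In 3 of the lines KISS1R was among the rows densest in H3K27me3. Its density was above that of 94.2% of the 48375 rows with a count in SA, 97.0% in METS and 98.0% in DLD1, and above that of 76.6% in SPH. The median row had 0.331 CPM per kb in SA, 0.343 in SPH, 0.362 in METS and 0.373 in DLD1, so KISS1R in SPH was still denser than the median row. Of all rows, 3 had a lower log2 ratio of SPH to DLD1 than KISS1R, at -2.11. Of the 3 H3K27me3 rows at the 2 genes, KISS1R alone was called lower in SPH than in DLD1, against 1.44% of all rows, and none was called higher (0.707%). This contrast was known when the genes were chosen, and nothing is read from that count. The balance of all rows depended on the scaling: with library totals 159 rows were called higher and 236 lower in SA, and with TMM factors 265 and 120. In SPH it was 342 and 696 with library totals, and 482 and 459 with TMM factors. None of the 3 was called lower in SA (0.488% of all rows) or in METS (0.763%), and none was called higher (0.329% and 0.504%).

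**Figure D2:**
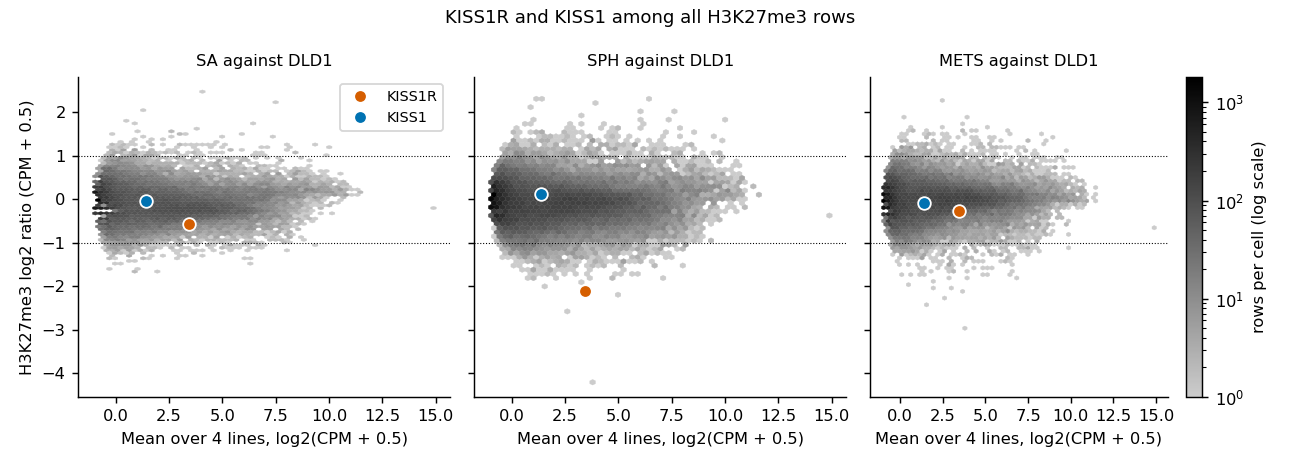
Log2 ratio of H3K27me3 in SA, SPH and METS to DLD1 (y axis, 0.5 CPM added) against the mean over the 4 lines, log2(CPM + 0.5) (x axis), for 48375 rows, with darker cells holding more rows. KISS1R lay at -0.57 in SA, -2.11 in SPH and -0.27 in METS, and KISS1 lay between the dotted 2-fold lines in all panels.

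H3K27me3 in SPH was farther below DLD1 at KISS1R than over the rows beside it. KISS1R lies between R3HDM4 and ARID3A in the RefSeq gene order (GRCh38.p14). Within 50 kb, 3 separate H3K27me3 rows with counts flank KISS1R, and together they had 0.191 CPM per kb in SA, 0.150 in SPH, 0.224 in METS and 0.243 in DLD1. KISS1R was thus 14.3 times as dense as its flanks in SA, 5.70 times in SPH, 15.3 times in METS and 17.0 times in DLD1. The 3 flanking rows also lay below DLD1 in each derivative. Their summed signal lay below DLD1 by 1.27-fold in SA (1.09 to 1.48), by 1.62-fold in SPH (1.38 to 1.91) and by 1.09-fold in METS (0.939 to 1.25). These comparisons share the DLD1 library.

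Set against these flanking rows within each library, which takes the library total out of the comparison, KISS1R was 2.99-fold lower in SPH than in DLD1 (2.16 to 4.16). For SA the ratio lay 1.19-fold below DLD1 (0.926 to 1.52) and for METS 1.11-fold (0.883 to 1.40), and both intervals include no difference. This ratio was chosen after the values were seen and uses the counts on which KISS1R was selected, so it is a description as well. Over the 1345 rows of chromosome 19 with a count, the median log2 ratio of SPH to DLD1 was -0.11, against -0.07 over all rows. Of these 1345 rows, 31 were called lower and 9 higher, where 1.44% of all rows were called lower and 0.707% higher.

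The H3K27me3 rows whose pattern over the 4 lines was most like that of KISS1R were looked for among 24187 rows with a mean of at least 1.49 CPM. Likeness was the Euclidean distance between the log2 values of the 4 lines after each row's mean was subtracted. The nearest was chr17:72838162-72857627, at a distance of 0.26. It had 465 counts in SA, 193 in SPH, 709 in METS and 534 in DLD1. It was low in SPH, as the search for likeness favours, and METS and DLD1 were near equal at 35.0 and 34.2 CPM. The next were chr14:39196479-39197685, chr16:1383602-1399439, chr16:1535887-1538982 and chr10:125185229-125187156, at distances of 0.32 to 0.36. Of these 5 rows, those on chromosome 17 and at chr16:1383602-1399439 held 2 counted H3K4me3 regions each. In the first, H3K4me3 was also lowest in SPH, with 90 counts in SA, 57 in SPH, 181 in METS and 139 in DLD1. In the second it was 89, 89, 96 and 84 counts in SA, SPH, METS and DLD1.

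H3K4me3 at both regions of KISS1R had its highest value in DLD1. SPH was the lowest line at one of them, and at the other the 3 derivatives lay close together. One counted region, chr19:917391-917834, begins 104 bp inside the lower-coordinate end of the gene, where KISS1R transcription starts, and the other, chr19:920110-920701, ends 314 bp before the upper end. The first had 69 counts in SA, 49 in SPH, 65 in METS and 82 in DLD1, which is 8.90, 6.85, 8.90 and 12.2 CPM in that order. Only SPH stood below DLD1 beyond counting error there, 1.78-fold (1.24 to 2.59). SA was 1.37-fold lower (0.983 to 1.92) and METS 1.37-fold lower (0.978 to 1.93), and both intervals include no difference. SPH was not separated from SA or METS at this region either. It was at 0.770-fold SA (0.523 to 1.13), and METS was 1.30-fold SPH (0.883 to 1.92). The second region was the stronger, with 133 counts in SA, 122 in SPH, 118 in METS and 176 in DLD1. Here the 3 derivatives lay together below DLD1: SA by 1.53-fold (1.21 to 1.93), SPH by 1.54-fold (1.21 to 1.95) and METS by 1.62-fold (1.28 to 2.06).

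**Figure D3:**
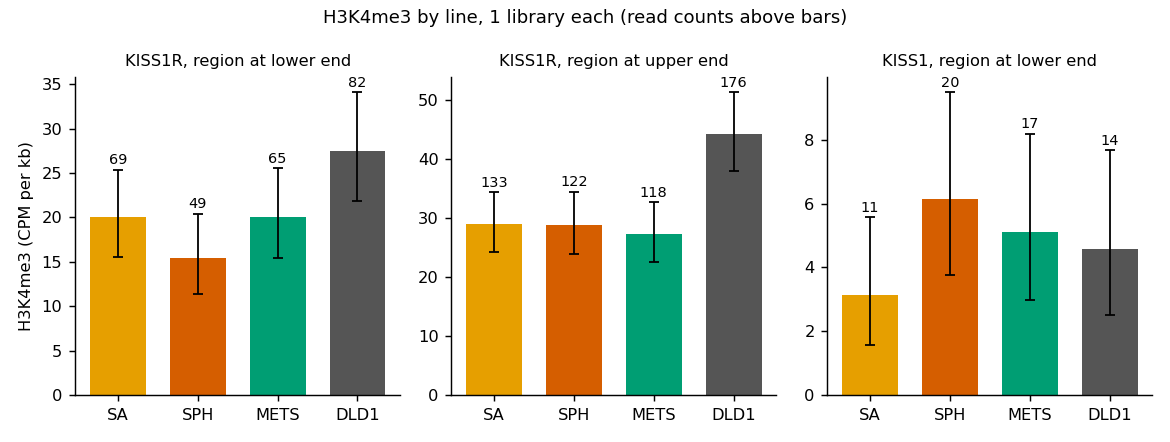
H3K4me3 in CPM per kb (y axis, from 0, with its own scale in each panel) in SA, SPH, METS and DLD1 at both KISS1R regions and at the KISS1 region, with read counts above. Bars are single libraries and whiskers exact 95% Poisson intervals; at the KISS1R region at the upper end SA, SPH and METS had 29.0, 28.8 and 27.3 CPM per kb and DLD1 had 44.2.

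Summed over both KISS1R regions, H3K4me3 was 26.1 CPM in SA, 23.9 in SPH, 25.1 in METS and 38.4 in DLD1. The derivatives were 1.47-fold (1.22 to 1.78), 1.61-fold (1.32 to 1.96) and 1.53-fold (1.26 to 1.86) lower than DLD1, in the order SA, SPH and METS. Among themselves the derivatives were not separated by these counts. METS was 0.962-fold SA (0.783 to 1.18) and 1.05-fold SPH (0.846 to 1.30), and SPH was 0.918-fold SA (0.744 to 1.13). The 3 differences from DLD1 share the DLD1 library and are not independent of each other. SPH, with the least H3K27me3 over the gene, was thus not separated from SA or METS in H3K4me3. METS, which had 0.827-fold the H3K27me3 of DLD1, had 0.653-fold its H3K4me3.

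Both KISS1R regions were of middling to low strength among the 35629 H3K4me3 regions with a count. The region at the lower end was denser than 37.0% of them in SA, 30.0% in SPH, 36.2% in METS and 40.2% in DLD1. The region at the upper end was denser than 42.4%, 40.2%, 41.2% and 49.0% in the same order. None of the 3 H3K4me3 regions at the 2 genes was called in either direction against DLD1, where 2.69% of all regions were called in SA, 7.07% in SPH and 5.11% in METS. Log2 ratios to DLD1 at the lower-end KISS1R region were -0.43 in SA, -0.79 in SPH and -0.43 in METS. At the upper-end region they were -0.60, -0.60 and -0.68 in the same order. The KISS1 region was at -0.43 in SA, but at 0.35 in SPH and 0.13 in METS. Over all regions with a count the median was -0.01 in SA, 0.02 in SPH and 0.00 in METS. A lower ratio than at the lower-end KISS1R region was held by 12.6% of all regions in SA, 5.20% in SPH and 10.1% in METS. For the upper-end region these shares were 7.72%, 8.25% and 4.01% in the same order.

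The strong H3K4me3 regions closest to KISS1R lay nearer to DLD1 than KISS1R did. The nearest regions outside the 3 kb limit lie 3548 bp below and 3860 bp above the gene. The lower one, chr19:913312-913739, had 345 counts in SA, 303 in SPH, 341 in METS and 274 in DLD1. The upper one, chr19:924875-925367, had 408 in SA, 302 in SPH, 357 in METS and 352 in DLD1. After scaling both were within a log2 ratio of -0.31 to 0.19 of DLD1. The upper one had its lowest ratio in SPH, at -0.31, the same direction as KISS1R. Summed over all 9 flanking regions within 50 kb, H3K4me3 was 307 CPM in SA, 298 in SPH, 302 in METS and 297 in DLD1. Relative to these flanks, KISS1R lay below DLD1 by 1.52-fold in SA (1.25 to 1.86), by 1.61-fold in SPH (1.31 to 1.98) and by 1.56-fold in METS (1.27 to 1.91). The weak flanking regions farther off were mixed. The region chr19:941082-941527 lay below DLD1 in the same way, with 44 counts in SA, 34 in SPH, 25 in METS and 52 in DLD1. In SPH the log2 ratio to DLD1 was 1.04 at chr19:952791-953336, 0.50 at chr19:908889-909327 and -0.18 at chr19:956648-957178.

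**Figure D4:**
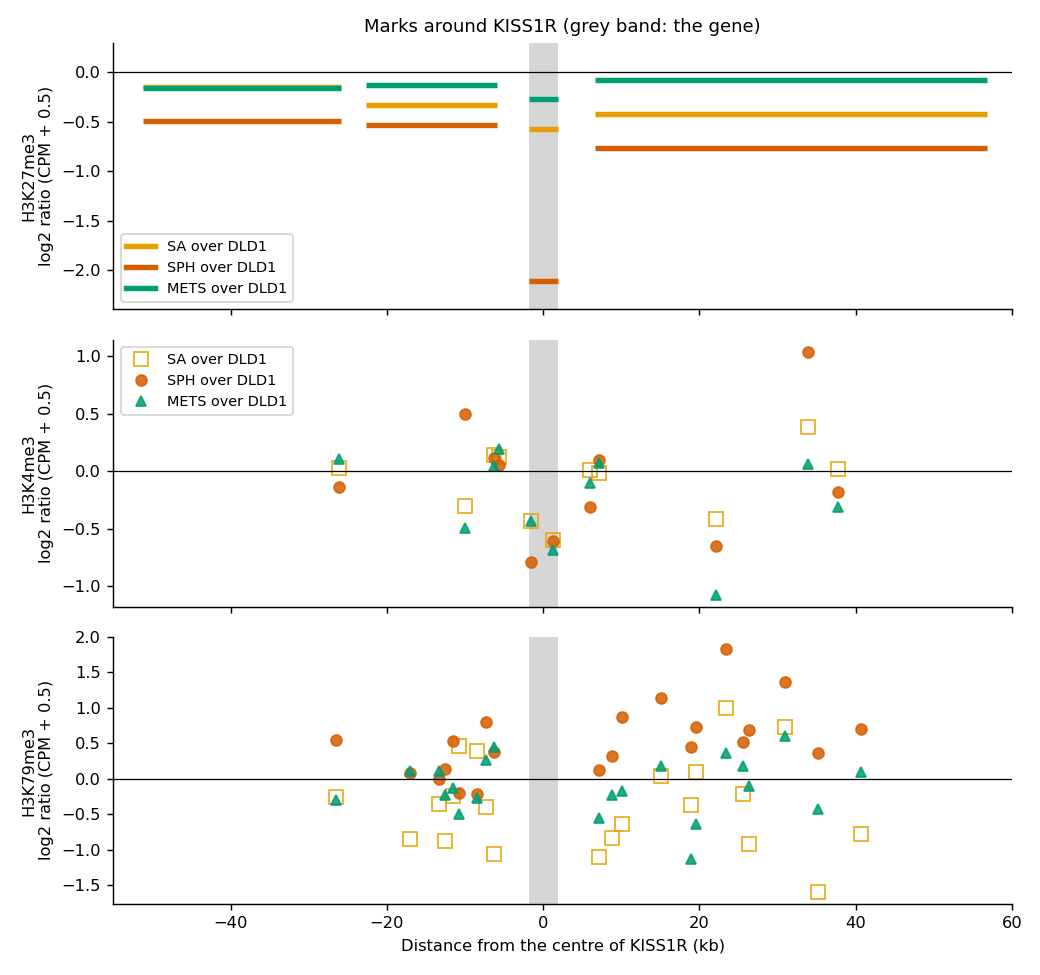
Log2 ratios of SA, SPH and METS to DLD1 (y axis, 0.5 CPM added) for each counted feature around KISS1R, by distance from the gene's centre in kb (x axis), with 1 panel per mark. H3K27me3 rows are drawn as bars over their span, and SPH reached -2.11 at the gene (grey band) and -0.49 to -0.77 beside it; H3K4me3 lay below 0 in all derivatives at the gene, and H3K79me3 had no region in the gene.

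H3K79me3 was not counted in KISS1R or within 3 kb of it. The nearest regions lie 4205 bp below and 5008 bp above the gene, and 21 regions lie within 50 kb. Together they had 57.9 CPM in SA, 118 in SPH, 74.8 in METS and 79.4 in DLD1. SPH was the highest and SA the lowest of the 4 lines over these neighbouring regions. SPH was 1.48-fold higher than DLD1 (1.33 to 1.66), with 19 of the 21 regions higher and a median log2 ratio of 0.52, against -0.11 over all regions of the mark. SA was 1.37-fold lower (1.21 to 1.56), with 15 of 21 regions lower, and METS was 1.06-fold lower (0.940 to 1.20), with 12 of 21 lower. Their median log2 ratios were -0.36 in SA and -0.13 in METS, against -0.02 and 0.08 over all regions of the mark. The shares of all regions higher or lower than DLD1 were not computed, so these counts have no background. All 21 regions lie inside the 3 H3K27me3 rows that flank KISS1R, so they are not separate observations.

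KISS1R was compared with the other rows that were called lower for H3K27me3 in SPH. Of 695 such rows, 234 (33.7%) held a counted H3K4me3 region, as KISS1R did. In these 234 the median log2 ratio of H3K4me3 in SPH to DLD1 was -0.13, with an interquartile range of -0.36 to 0.13, and it was below 0 in 159. KISS1R had a ratio of -0.67, and 27 of the 234 lay lower. A counted H3K79me3 region lay in 102 of the 695 rows (14.7%), with a median log2 ratio of 0.36, and in 82 of these it was above 0. KISS1R was among the rows with none. With TMM factors 458 other rows were called lower, and the medians were -0.18 over 153 rows for H3K4me3 and 0.43 over 65 rows for H3K79me3. Some of these rows overlap each other, and all the ratios share the SPH and DLD1 lines. The same shares and medians were not computed over all H3K27me3 rows. They are therefore not read as traits of the rows lower in SPH.

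**Figure D5:**
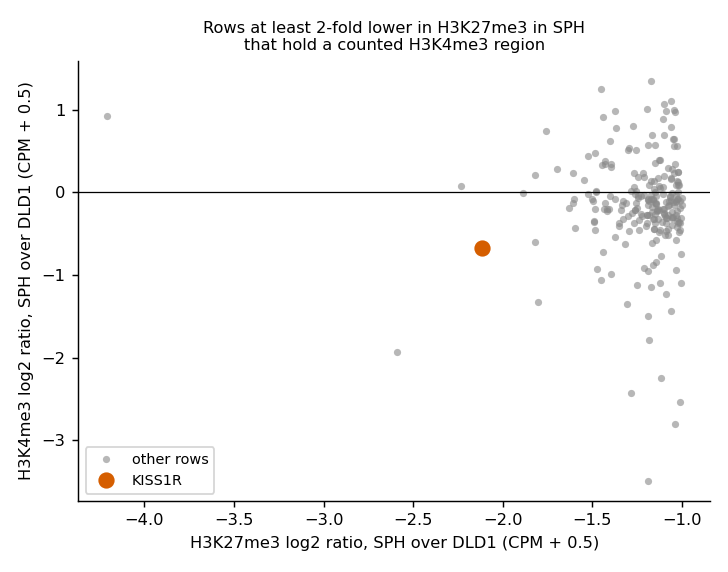
Log2 ratio of summed H3K4me3 in SPH to DLD1 (y axis) against that of H3K27me3 (x axis), each with 0.5 CPM added, for KISS1R and the 234 other rows that were at least 2-fold lower in H3K27me3 and held a counted H3K4me3 region. KISS1R lay at -2.11 and -0.67, and the median of the other rows in H3K4me3 was -0.13.

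In the features that overlap KISS1 itself, the ligand gene, no difference between lines exceeded counting error. The H3K27me3 row of KISS1, chr1:204159469-204165614, had 39 counts in SA, 48 in SPH, 40 in METS and 33 in DLD1. This was 0.336 CPM per kb in SA, 0.383 in SPH, 0.321 in METS and 0.344 in DLD1, close to the median row of each line and far below KISS1R. SA was at 0.976-fold the DLD1 level (0.598 to 1.60), SPH at 1.11-fold (0.699 to 1.79) and METS at 0.932-fold (0.573 to 1.53). The intervals of all 6 pairs of lines include no difference, and changes inside these limits were not detectable at this depth. The 5 rows most like KISS1 lay at distances of 0.01 to 0.02.

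The promoter of KISS1 is shown, and none of the counted H3K4me3 regions lay near it. For KISS1R the promoter set used held no sequence. RefSeq places KISS1 on the minus strand, so transcription starts at the upper end of the gene, and the nearest counted H3K4me3 region is 5753 bp from that end. The sequence below gives the 250 bases before the start from RefSeq on build GRCh38.p14, chr1:204196492-204196741, minus strand, read 5′ to 3′; these coordinates do not carry over to hg19. Capitals mark the matches to TATAAA (on both strands, overlapping) and to GGGCGG, the core bound by SP1.
KISS1 promoter: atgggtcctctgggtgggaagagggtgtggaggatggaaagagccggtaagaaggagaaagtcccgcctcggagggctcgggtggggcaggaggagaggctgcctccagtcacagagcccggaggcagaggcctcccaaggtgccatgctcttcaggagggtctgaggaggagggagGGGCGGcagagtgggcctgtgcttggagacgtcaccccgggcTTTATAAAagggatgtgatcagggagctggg

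The TATAAA match on the sense strand, the core of a TATA box, begins 29 bases before the start of KISS1 and overlaps the antisense match at 31 bases. A match on either strand is found in 10.7% of 35116 RefSeq promoter windows of this length. The GGGCGG match begins 73 bases before the start, and 42.6% of the windows hold one on either strand. The motif GCCNNNGGC, a form bound by AP-2 factors, has no match in this window and is found in 19.8% of all. The window holds 8 CG dinucleotides and 63.6% G and C, against medians of 11 and 58% over all windows.

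The 1 H3K4me3 region counted at KISS1, chr1:204159412-204159866, overlaps the lower end of the gene, where transcription ends. It was weak, with 11 counts in SA, 20 in SPH, 17 in METS and 14 in DLD1. Its density was above that of 11.4% of regions in SA, 16.1% in SPH, 12.3% in METS and 13.7% in DLD1. SA was at 0.681-fold DLD1 (0.280 to 1.62), SPH at 1.34-fold (0.645 to 2.87) and METS at 1.12-fold (0.519 to 2.45), so differences of this size could not be told from counting error.

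The remaining member is the row beside KISS1, chr1:204167288-204183220, which begins 1669 bp beyond it and so came in through the 3 kb limit. The row covers none of KISS1 itself. It had 61 counts in SA, 55 in SPH, 85 in METS and 80 in DLD1. Both mesenchymal lines were below DLD1, SA by 1.59-fold (1.12 to 2.25) and SPH by 1.90-fold (1.33 to 2.73). METS was 1.22-fold lower (0.890 to 1.68), an interval that includes no difference, and it was 1.55-fold higher than SPH (1.09 to 2.22). The row had 0.169 CPM per kb in SPH and 0.322 in DLD1, below the median row of each line.

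Little H3K79me3 had been counted around KISS1. The 4 separate H3K27me3 rows within 50 kb, beyond the limit, together had 0.265 CPM per kb in SA, 0.275 in SPH, 0.318 in METS and 0.281 in DLD1. Most of that length is 1 row of 158815 bp, which runs on far beyond 50 kb. The sum thus says little of the shorter rows or of the 50 kb itself. KISS1 was 1.27, 1.39, 1.01 and 1.22 times as dense as these flanks in SA, SPH, METS and DLD1. H3K79me3 had been counted at 3 regions within 50 kb, the nearest 13413 bp away, with 16 counts in SA, 8 in SPH, 11 in METS and 9 in DLD1 in all. The closest flanking H3K4me3 region, chr1:204182680-204183124, had 181 counts in SA, 180 in SPH, 151 in METS and 135 in DLD1. Farther off, chr1:204121057-204121657 had 196, 109, 288 and 249 counts in the same order. Its log2 ratio to DLD1 was -0.54 in SA, -1.25 in SPH and 0.09 in METS, so the lower H3K4me3 there was found in the mesenchymal lines.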

How the data were processed

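Each library's deposited table gave read counts per feature, which the authors left unscaled, as judged from whole numbers with unequal column totals. The build was hg19, per the submitters' processing notes, and the aligner, region caller and counting program are not given in the sources used here. H3K27me3 features are called rows and were taken as gene bodies, which was not checked against an hg19 annotation. These tables end with a statement that 7773 rows were skipped, so their totals cover 50000 rows on 19 chromosomes. H3K4me3 held 36400 regions and H3K79me3 157878. Features with 0 counts in every line numbered 1625, 771 and 1758 for H3K27me3, H3K4me3 and H3K79me3 and were left out of ranks and shares.

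Counts were scaled to CPM. Intervals came from SciPy 1.17.1, conditional on the sum of both counts, and for ratios to flanks from the conditional odds ratio. Intervals cover counting error only. PCR copies were not marked here, and if any remain in the counts the intervals are too narrow even for counting error. No p-value was computed, since each line had a single library. Flanks were the separate features with counts beyond 3 kb and within 50 kb. Distance was taken to the nearest edge, and a feature was counted over its full length even where it ran past 50 kb. The named features were the members, these flanks and the 5 rows most like each gene. The members and lists were chosen with earlier results of these data known, and the flank ratios and the comparison with other rows lower in SPH were chosen after the values were seen. Alternatives were edgeR 4.0.16 TMM factors, DESeq2 1.42.0 size factors, limma 3.58.1 quantile normalization, other added values, other windows, a filter and another threshold. Other genes of the kisspeptin pathway were not analysed here, since no annotation on hg19 was used. Neighbour names for KISS1R and the promoter came from RefSeq on GRCh38.p14, and promoter sequence was matched for 1 of the 2 genes, KISS1.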

Additional observations from a re-analysis of the deposited data

How the results depend on the processing

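Each of 12 log2 ratios to DLD1 (H3K27me3 and H3K4me3, KISS1R and KISS1, SA, SPH and METS) was recomputed, 90 values in all, and 85 stayed inside the counting interval of the value reported. Some of the 85 were bound to stay, because the setting picked the same features and returned the same value. These were the summed H3K27me3 rows at KISS1R, the H3K4me3 regions overlapping either gene, and the 10 kb window at KISS1. The 85 is therefore not a measure of stability. With TMM factors, DESeq2 size factors, quantile normalization, 0.1 or 1 CPM added, all 12 ratios stayed inside their intervals. Against the flanks within each library, a measure added after the data were seen, H3K27me3 at KISS1R was at -0.25 in SA and -1.58 in SPH. With H3K4me3 regions within 10 kb in place of 3 kb, KISS1R was at -0.026 in SA, -0.071 in SPH and -0.045 in METS, since this takes in stronger regions beside the gene. With all H3K27me3 rows within 3 kb summed, KISS1 moved from -0.03 to -0.42 in SA and from 0.13 to -0.48 in SPH. In METS it moved from -0.08 to -0.22. The sum takes in the row beside KISS1, and the sign changed in SPH. These values are among the 85 because the counting intervals of KISS1 are wide. H3K79me3 at the genes had no value within 3 kb and so none to compare. The number of features called in any derivative was 1674 for H3K27me3, 4154 for H3K4me3 and 27722 for H3K79me3. With 0.1 CPM added it was 10014, 6534 and 46706. With 1 CPM added it was 846 for H3K27me3 and 14519 for H3K79me3. At a 1.5-fold threshold it was 10525, 12156 and 84656. Among features at or above the median it was 1058, 229 and 8948. With DESeq2 size factors 265 H3K27me3 rows were higher and 120 lower in SA and 482 and 459 in SPH, and after quantile normalization 255 and 126, and 513 and 433. No paired analysis was possible because each line had 1 library per mark and no result comes from a test, and for the same reason no replicate could be left out. Depth limits KISS1 most, where counts were 11 to 48.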
